A study of Mus musculus with 2 samples.

Results

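The genes described here drive cells from G1 into S phase and copy their DNA. They were 37 genes, chosen by name for their known roles and found by exact match of the symbol among the 43346 features of the table: 8 cyclin, CDK and E2F genes, 4 origin licensing genes, 10 genes of the replicative helicase, 11 genes of the polymerases, the sliding clamp and lagging strand synthesis, 2 genes of nucleotide supply, and 2 genes of chromatin assembly and histone mRNA. All 37 were found. RNA-seq of rRNA-depleted total RNA compared X63/0 mouse plasmacytoma cells kept for 3 h in 30 mM cycloleucine with the same line left untreated, with 1 library each. X63/0 is an established mouse myeloma line of B cell origin, and cycloleucine, a cyclic amino acid, blocks the enzyme that makes S-adenosylmethionine (SAM), the donor of methyl groups. Both groups were the same line in the same serum-containing medium. Cycloleucine was added from a stock made up in medium, and no source used here says whether the untreated cells received plain medium. The design text mentions a triplicated experiment. With 1 library per group analysed here, the differences below were not checked between cultures and no p-values were computed.

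As background, the decision to enter S phase is made by cyclin D with CDK4 and cyclin E with CDK2, which inactivate the retinoblastoma protein and release E2F transcription factors. E2F factors switch on much of the replication machinery. In G1 the origin recognition complex, CDC6 and CDT1 load the MCM2-7 ring on DNA; CDC45 and the GINS complex later join it to form the active helicase. DNA polymerase alpha with primase starts each strand, replication factor C loads the PCNA clamp, and polymerases delta and epsilon extend the DNA. Ribonucleotide reductase supplies the deoxyribonucleotides.

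The cycloleucine library held 31951946 reads in genes and the untreated library 27127865, and exon reads made up 49.4% of these with cycloleucine and 48.4% without. RPKM, exon reads per length of exon and per total of gene reads, is used for levels. Cdk8 took 5.98% of gene reads in the cycloleucine library and 7.88% in the untreated library, almost all in introns, and this share is part of the total by which every level is scaled. Mat2a, which encodes the SAM synthetase that cycloleucine inhibits and which is the gene already known to respond in these libraries, stood at 182 RPKM with cycloleucine and 71.2 RPKM without. Markers of plasma cells were present, all 8 of 8 above the filter described below, with a summed level of 442 RPKM with cycloleucine and 441 RPKM without. Single markers differed more than this sum. Slamf7, Tnfrsf17 and Cd28 had 12.0, 18.5 and 2.00 RPKM with cycloleucine and 9.41, 14.7 and 1.35 RPKM without. Sdc1 had 51.7 RPKM with it and 58.0 RPKM without, and the rest lay closer together. T and natural killer cell markers summed to 0.554 RPKM with cycloleucine and 0.419 RPKM without (0 of 6 kept, Cd3d at 0 exon reads in both), and fibroblast markers to 0.267 RPKM with it and 0.277 RPKM without (0 of 5 kept). Myeloid markers summed to 1.43 RPKM with it and 1.45 RPKM without (1 of 4 found was kept, Cd68). Of the B cell genes reported here, Cd79b and Ms4a1 were kept, while Cd79a and Pax5 had at most 2 exon reads in either library.

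All 37 genes were expressed in both libraries and passed the filter (50 or more exon reads in total and 1 RPKM or more in one library or both), as did 9101 features in all. Levels are shown first as RPKM and then as a log2 fold change, for which 0.1 RPKM was added to the values of both libraries. The size rule was a log2 fold change of at least 0.32 in either direction, called the 0.32 rule below. Most of the machinery differed little between the libraries, and a few genes stood away from the rest. E2f2 was the 1 gene higher with cycloleucine by this rule, as were 8.44% of all kept features, and Cdt1, Ccne2 and Gins1 were the 3 genes lower by it, as were 7.08%. The other 33 lay between those bounds, and 0 of 37 reached 1.5-fold in either direction, against 2.16% of features higher and 1.88% lower. As shares of the list, 3 of 37 lower and 1 of 37 higher are close to or below this background, which includes features of few reads. Among genes with at least 1000 exon reads, 2 of 34 were lower, Ccne2 and Gins1, against 2.81% of such features. In the same set 1 of 34 was higher, against 4.1%. Both counts are small, and Ccne2 fell short of the rule with uniquely placed reads, at -0.28.

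The list as a set leaned slightly below 0, though its genes did not all go the same way. Its median log2 fold change was -0.048, with Mcm4 as the middle gene (95% counting interval -0.12 to 0.03), beside 0.0022 over all kept features. Below 0 lay 28 of the 37 genes, where 49.4% of all kept features did. Counting intervals lay wholly below 0 for 15 genes, wholly above it for 4, and held it for 18. With uniquely placed reads 20 of 37 lay below 0, against 42.4% of features, and with trimmed-mean (TMM) or median-of-ratios scaling 24 did, against 47.0% and 47.1%. TMM and median-of-ratios scaling shift all features nearly together, and under each of them 28 of 37 lay below the median of all features. Uniquely placed reads moved that median to 0.036, but they also changed single genes by different amounts. With them Fen1 went from -0.046 to 0.30 and Mcm4 from -0.048 to -0.020, and 26 of 37 lay below the median of all features. Exon reads of the 37 genes made up 0.316% of gene reads with cycloleucine and 0.327% without. In bulk RNA a smaller share of cells in S phase and less RNA per cell cannot be told apart.

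**Figure D1:**
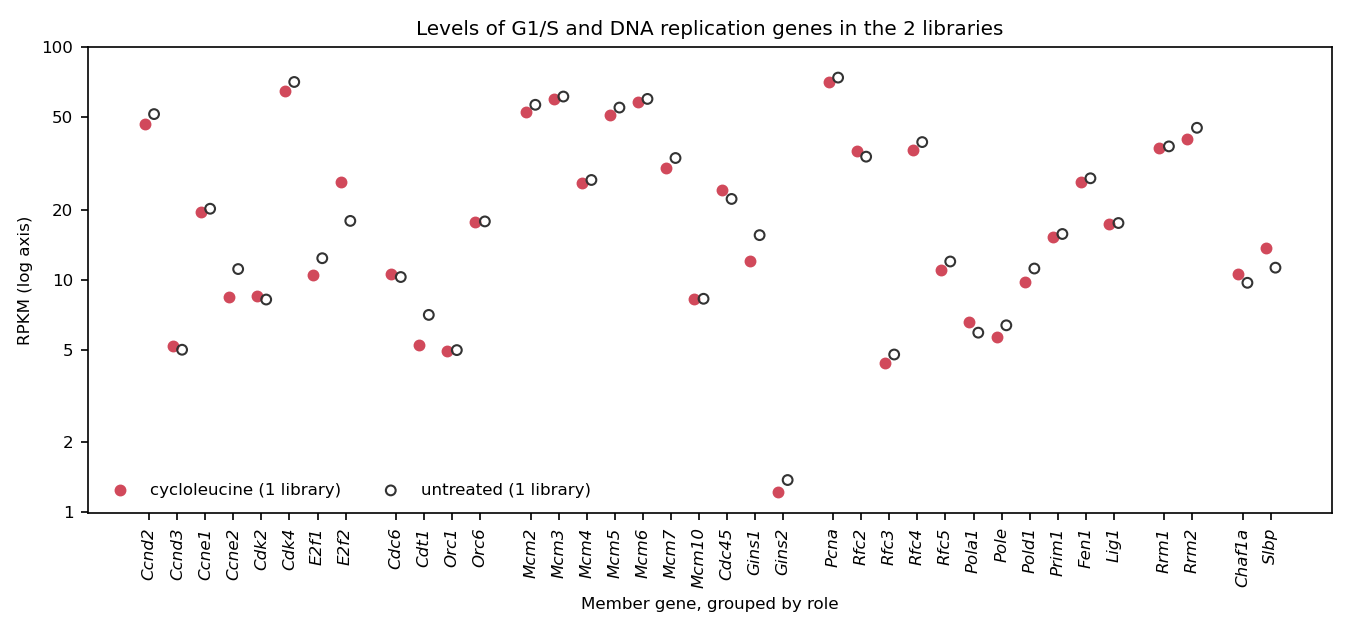
RPKM (log axis) of each of the 37 genes, grouped by role, in the cycloleucine library (filled, left) and the untreated library (open, right). Most pairs of points nearly coincide, while E2f2 is higher with cycloleucine (26.3 against 17.9 RPKM) and Cdt1, Ccne2 and Gins1 are lower.

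**Figure D2:**
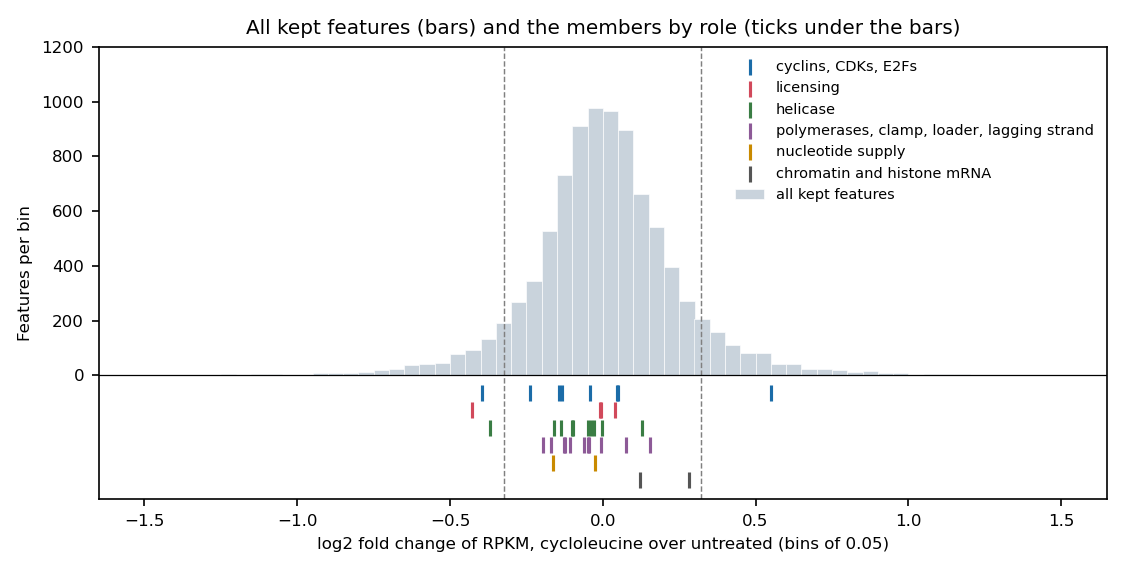
Distribution of the log2 fold change of RPKM, cycloleucine over untreated, over the 9101 kept features (bars; 23 features beyond 1.5 in either direction are not drawn), with the 37 genes as ticks coloured by role and dashed lines at 0.32 either way. The ticks lie mainly within the lines and more often left of 0 than right of it, with E2f2 alone beyond the right line.

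The promoters of many of these genes share a sequence feature that was not used to choose them. E2F factors are known to bind sites of the kind TTTCCCGC, TTTCGCGC, TTTGCCGC and TTTGGCGC, and both strands of the RefSeq promoter windows (GRCm38.p6, 250 bases before to 50 after each annotated start) were searched for these 4 words. A window was at hand for 30 of the 37 genes, and 13 of these held at least 1 match, 43.3%, where 2.6% of all 27025 genes with a window and 5.34% of the 6854 kept ones did. The 13 were Cdk2, E2f2, Cdc6, Cdt1, Orc1, Mcm3, Mcm5, Mcm6, Mcm7, Rfc3, Pola1, Pold1 and Lig1. A match is a string of letters and was not tested as a binding site. The genes with a match did not stand apart as a group: their median log2 fold change was -0.03, ranging from -0.43 to 0.55, and that of the 17 genes without one was -0.046, ranging from -0.24 to 0.28. Neither range holds the 7 genes without a window at hand, Ccnd2, Ccne2, Mcm4, Gins1, Gins2, Rfc2 and Pole, of which Ccne2 and Gins1 are among the 3 genes lower by the 0.32 rule.

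The windows of E2f2 and Cdt1 are shown because these genes have the highest and the lowest fold change of the list. Each also carries the same word a short distance after the RefSeq start of its window. Those of Mcm6 and Mcm3 are shown as examples from the MCM2-7 genes, whose levels stayed close: Mcm6 had 3 matches, and Mcm3, like Mcm5 and Mcm7, had 2. Capitals mark the matches, counted from the start base as position 1, with the base before it at -1. In E2f2 (chr4:136172024-136172323, plus strand) the match begins at position 40, and in Cdt1 (chr8:122567765-122568064, plus strand) at position 33. This E2f2 window ends before the gene start used for the counts, 136172394. A second E2f2 window, at chr4:136180532-136180831, held 0 matches. In Mcm6 (chr1:128359656-128359955, minus strand) 3 matches begin at -110, -106 and -47, and the first pair, on opposite strands, overlaps. In Mcm3 (chr1:20820263-20820562, minus strand) matches begin at position 20, on the opposite strand, and at position 39.
E2f2: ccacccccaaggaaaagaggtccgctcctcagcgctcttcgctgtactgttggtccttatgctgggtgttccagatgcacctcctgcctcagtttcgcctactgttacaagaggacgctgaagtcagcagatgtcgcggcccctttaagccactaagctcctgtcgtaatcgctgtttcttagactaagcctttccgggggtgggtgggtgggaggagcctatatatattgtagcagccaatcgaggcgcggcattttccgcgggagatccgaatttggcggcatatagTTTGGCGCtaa
Cdt1: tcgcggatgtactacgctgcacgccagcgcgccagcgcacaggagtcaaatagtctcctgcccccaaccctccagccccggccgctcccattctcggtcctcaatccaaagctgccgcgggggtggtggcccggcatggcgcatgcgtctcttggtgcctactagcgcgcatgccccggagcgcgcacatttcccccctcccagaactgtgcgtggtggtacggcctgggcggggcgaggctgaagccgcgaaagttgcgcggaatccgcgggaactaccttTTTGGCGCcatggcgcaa
Mcm6: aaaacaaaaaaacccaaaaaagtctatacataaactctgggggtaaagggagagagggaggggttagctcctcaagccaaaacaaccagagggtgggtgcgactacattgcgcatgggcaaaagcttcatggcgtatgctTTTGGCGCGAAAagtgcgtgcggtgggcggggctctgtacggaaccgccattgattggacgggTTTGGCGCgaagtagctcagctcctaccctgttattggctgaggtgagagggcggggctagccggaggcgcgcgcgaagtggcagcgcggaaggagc
Mcm3: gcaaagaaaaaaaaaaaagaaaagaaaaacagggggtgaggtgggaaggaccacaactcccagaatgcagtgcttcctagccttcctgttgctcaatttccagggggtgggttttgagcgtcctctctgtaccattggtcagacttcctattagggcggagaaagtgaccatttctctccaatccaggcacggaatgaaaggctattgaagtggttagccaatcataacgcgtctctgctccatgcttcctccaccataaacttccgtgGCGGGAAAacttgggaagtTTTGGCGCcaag

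E2F and cyclin genes held the widest range of values. E2f2 encodes an activating E2F factor and lies on chromosome 4 from 136172394 to 136196057 (mm10). It had 26.3 RPKM with cycloleucine and 17.9 RPKM without, from 4098 exon reads with it and 2369 without. This is a log2 fold change of 0.55 (0.48 to 0.63), or 1.47-fold. Spliced and unspliced reads of E2f2 both leaned the same way. Junction reads, which span 2 exons of a spliced RNA, were 333 with cycloleucine and 194 without, a log2 change of 0.54 (0.28 to 0.81). Intron reads, which come mostly from unspliced RNA, were 657 with it and 458 without, a log2 change of 0.28 (0.11 to 0.46). Among the 5615 kept features with at least 1000 exon reads, 32 stood at or above E2f2, itself included. In that set 4.1% were higher and 2.81% lower by the 0.32 rule.

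E2f1, the best studied activating member, went the other way. It had 10.5 RPKM with cycloleucine and 12.4 RPKM without, a log2 fold change of -0.24 (-0.37 to -0.12), short of 0.32. Its junction reads, 116 with cycloleucine and 155 without, were further apart, at -0.65 (-1.01 to -0.30). The RPKM of E2f2 was thus 2.51 times that of E2f1 with cycloleucine and 1.45 times without.

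Among the cyclins, D-type cyclins bind CDK4 and E-type cyclins bind CDK2. Ccnd2 was the main D-type cyclin by level, with 46.6 RPKM with cycloleucine and 51.5 RPKM without, a log2 fold change of -0.14. Ccnd3 stood at 5.18 RPKM with it and 4.998 RPKM without, so that the level of Ccnd2 was 8.99 times that of Ccnd3 with cycloleucine and 10.3 times without. The catalytic partner Cdk4 was among the highest of all 37 genes, at 64.5 RPKM with cycloleucine and 70.7 RPKM without (-0.13), while Cdk2 had 8.48 RPKM with it and 8.22 RPKM without (0.05). Of the D-type partners outside the list, Ccnd1 (0.180 RPKM with cycloleucine, 0.154 RPKM without) and Cdk6 (0.134 RPKM with cycloleucine, 0.128 RPKM without) were close to the floor, so the cyclin D and CDK pair by level was Ccnd2 with Cdk4 in both libraries.

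The E-type cyclin genes differed from each other. Ccne1 had 19.6 RPKM with cycloleucine and 20.2 RPKM without, a log2 fold change of -0.04 (-0.15 to 0.06). Ccne2, on chromosome 4 from 11191351 to 11204779, had 8.42 RPKM with cycloleucine and 11.1 RPKM without, a log2 fold change of -0.40 (-0.53 to -0.27). Other readouts of Ccne2 lay closer to 0. Uniquely placed reads, 68.4% of its exon reads with cycloleucine and 64.4% without, gave -0.28, short of 0.32. Its junction reads were 206 with it and 196 without (-0.16; -0.45 to 0.13) and its intron reads 72 with it and 56 without (0.12; -0.40 to 0.66), and both of these intervals hold 0. The 3' part of the gene overlaps Ints8.

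Origin licensing genes were level but for Cdt1. Cdt1, which brings the MCM2-7 ring to the origin and is a target of tight control against re-replication, had 5.22 RPKM with cycloleucine and 7.06 RPKM without. That is a log2 fold change of -0.43 (-0.64 to -0.23), or 1.35-fold lower, the lowest of the list. Its count rests on a narrow class of reads: of 365 exon reads with cycloleucine and 419 without, 358 with it and 414 without crossed an exon-exon junction. Its locus, on chromosome 8 from 122568015 to 122573128, lies inside Gm20388, a feature of 362621 gene reads with cycloleucine and 303915 without, and intron reads of Cdt1 were 0 with it and 1 without. The RPKM of Cdt1 therefore counts mainly reads across its junctions and is not comparable with the level of other genes.

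The other licensing genes load or mark the origin. Cdc6, the partner of CDT1 in loading, had 10.6 RPKM with cycloleucine and 10.3 RPKM without (0.04; -0.06 to 0.14). Orc1 and Orc6, subunits of the origin recognition complex, had 4.96 and 17.7 RPKM with cycloleucine and 4.98 and 17.8 RPKM without, log2 fold changes of -0.0066 and -0.0090. Exon and intron reads of Orc6 parted: its intron reads were 55 with cycloleucine and 83 without, and its ratio of intron to exon reads differed by -0.82 in log2 (exact interval -1.36 to -0.29).

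The 6 subunits of the MCM2-7 ring, which enter it in equal number, did not have equal RNA levels, and their order was the same in both libraries. Mcm3 was the highest, at 59.98 RPKM with cycloleucine and 61.2 RPKM without. Mcm4 was the lowest, at 25.9 RPKM with it and 26.8 RPKM without, and Mcm7 next at 30.3 RPKM with it and 33.3 RPKM without. Mcm6 (58.2 RPKM with cycloleucine, 59.8 RPKM without), Mcm2 (52.7 RPKM with cycloleucine, 56.4 RPKM without) and Mcm5 (51.2 RPKM with cycloleucine, 54.9 RPKM without) lay between. The highest was 2.31 times the lowest with cycloleucine and 2.28 times without. RPKM divides by the length of all annotated exons of a gene, so part of such a difference can be annotation, which is the same in both libraries.

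The fold changes of these subunits lay within a narrow band, from -0.14 for Mcm7 to -0.03 for Mcm3, and all 6 were below 0, except that Mcm3 stood at 0.0010 with uniquely placed reads. Each is smaller than 0.32. The counting intervals of Mcm2, Mcm5 and Mcm7 lay below 0 and those of Mcm3, Mcm4 and Mcm6 held it. Intron reads of Mcm6 were 371 with cycloleucine and 257 without, a log2 change of 0.29 (0.06 to 0.53) against -0.04 in its exon reads.

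The factors that complete or start the helicase were less uniform. Gins1, a GINS subunit on chromosome 2 from 150905400 to 150931280, had 12.0 RPKM with cycloleucine and 15.5 RPKM without, a log2 fold change of -0.37 (-0.54 to -0.21), or 1.29-fold lower. Its junction reads, which are part of its exon reads, were also lower, at 130 with cycloleucine and 172 without (-0.64; -0.98 to -0.30). Intron reads of Gins1 were lower too, at 84 with cycloleucine and 108 without (-0.60; -1.03 to -0.17). Of the 3 genes lower by the 0.32 rule, it was the only one whose intron reads were enough to compare and lay below 0 beyond their counting interval. Cdc45, by contrast, had 24.3 RPKM with cycloleucine and 22.2 RPKM without, at 0.13 (0.03 to 0.23). Mcm10, which helps to fire the helicase, was at -0.0015, with 8.27 RPKM with it and 8.28 RPKM without. Gins2 was the lowest of the list by level, at 1.22 RPKM with it and 1.38 RPKM without, but it too lies within Gm20388 and 160 of its 160 exon reads with cycloleucine and 151 of 153 without crossed a junction. Its fold change was -0.16 (-0.50 to 0.16).

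**Figure D3:**
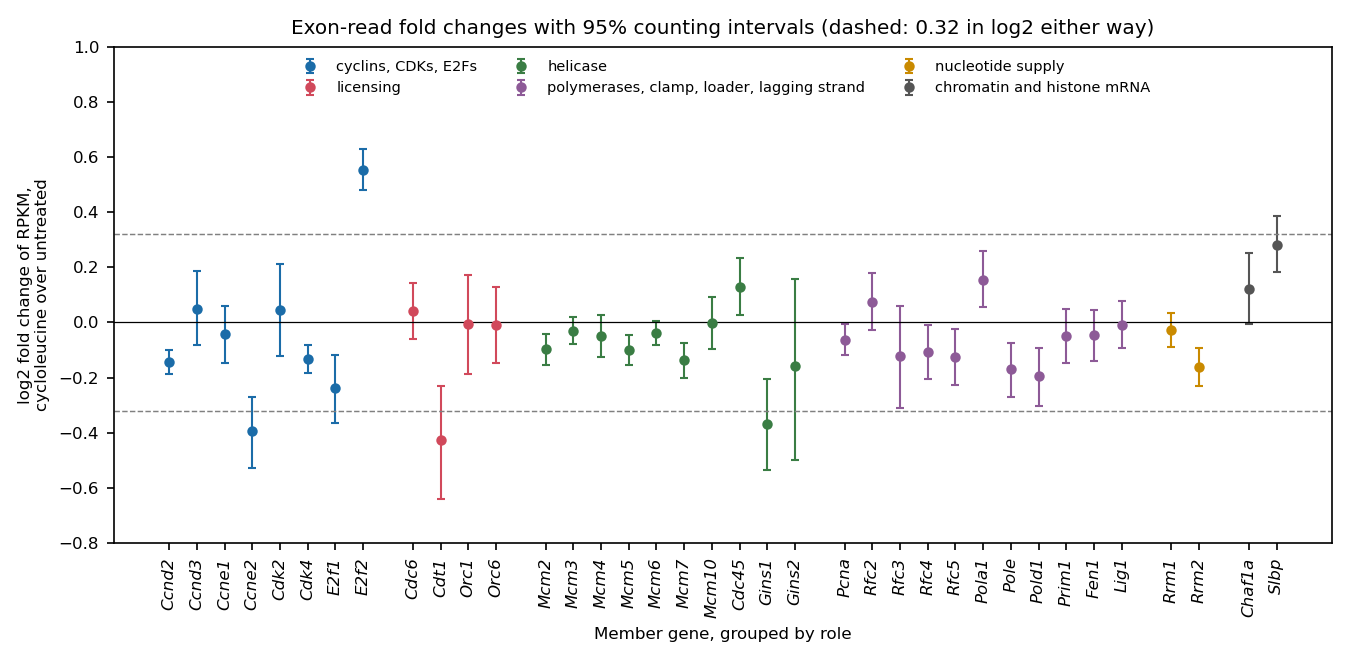
Log2 fold change of RPKM, cycloleucine over untreated, of each gene, with 95% exact counting intervals of its exon reads as bars and dashed lines at 0.32 either way. Of the helicase genes 9 of 10 and of the polymerase and clamp genes 9 of 11 lie below 0, where 49.4% of all kept features do. With uniquely placed reads, not drawn, Mcm3, Mcm10, Pcna, Fen1 and Lig1 stood above 0. Gins1 is beyond the lower line at -0.37, and Cdc45 (0.13) and Pola1 (0.15) are above 0. E2f2 at 0.55 is the only point above the upper line.

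Of the polymerase and clamp genes 0 of 11 were past 0.32, with fold changes from -0.20 to 0.15 in log2 and a median of -0.06. Below 0 lay 9 of them, where 49.4% of all kept features did. With uniquely placed reads Pcna, Fen1 and Lig1 stood above 0. Pcna, the sliding clamp, was the highest gene of the list, with 70.7 RPKM with cycloleucine and 73.9 RPKM without, at -0.06 (-0.12 to -0.0070). Only 42.95% of its exon reads with cycloleucine and 40.7% without were uniquely placed, and from unique reads it stood at 0.049. Subunits of the clamp loader, replication factor C, differed in RPKM far more than the MCM genes. Rfc4 (36.3 RPKM with cycloleucine, 39.0 RPKM without) and Rfc2 (35.6 RPKM with cycloleucine, 33.8 RPKM without) were high, Rfc5 (10.96 RPKM with cycloleucine, 11.97 RPKM without) lower and Rfc3 (4.37 RPKM with cycloleucine, 4.77 RPKM without) lowest, in the same order in both libraries. Their fold changes ran from -0.13 to 0.07. Annotated exon length enters these levels. It was 4669 bases for Rfc5 and 1534 for Rfc4, whose exon reads with cycloleucine were close, 1635 and 1777. Part of the spread in RPKM can therefore be annotation, which is the same in both libraries.

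Catalytic polymerase genes leaned in different directions, all short of 0.32. Pola1, the catalytic subunit of polymerase alpha, had 6.60 RPKM with cycloleucine and 5.92 RPKM without (0.15; 0.06 to 0.26). Pole, of polymerase epsilon, had 5.65 RPKM with it and 6.37 RPKM without (-0.17; -0.27 to -0.07), and Pold1, of polymerase delta, 9.74 RPKM with it and 11.2 RPKM without (-0.20; -0.30 to -0.09). The primase gene Prim1 was at -0.05 and the DNA ligase gene Lig1 at -0.0077. Fen1, the flap endonuclease that trims Okazaki fragments, was at -0.05 from all exon reads, but only 10.8% of them with cycloleucine and 8.65% without were unique. Its unique reads, 221 with it and 155 without, gave 0.30, so its direction depends on how shared reads were placed.

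In Pold1 exon and intron reads moved apart. This gene on chromosome 7, from 44532746 to 44548849, had 173 intron reads with cycloleucine and 88 without, a log2 change of 0.73 (0.36 to 1.13), while its junction reads were 527 with cycloleucine and 587 without (-0.39; -0.56 to -0.22). Its intron to exon ratio was thus higher with cycloleucine by 0.93 in log2 (0.54 to 1.34). It was the 1 gene of the 33 compared whose ratio was at least 1.5-fold higher, where 6.64% of features with enough intron reads were.

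The nucleotide supply genes encode both subunits of ribonucleotide reductase. Rrm1, the large subunit, had 36.7 RPKM with cycloleucine and 37.4 RPKM without (-0.03; -0.09 to 0.03). Rrm2, the small subunit whose amount varies through the cycle, had 40.2 RPKM with it and 45.0 RPKM without (-0.16; -0.23 to -0.09). Both subunits were of similar level, Rrm2 at 1.09 times Rrm1 with cycloleucine and 1.20 times without.

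Both genes that link DNA synthesis to new chromatin were above 0. Slbp encodes the protein that binds the stem-loop of replication-dependent histone mRNAs, and lies on chromosome 5 from 33634952 to 33652574. It had 13.7 RPKM with cycloleucine and 11.3 RPKM without, a log2 fold change of 0.28 (0.18 to 0.38), just short of 0.32, and 0.34 from unique reads, just past it. Junction reads were 644 with it and 422 without (0.37; 0.19 to 0.55), but intron reads were 88 with it and 120 without, a log2 change of -0.68 (-1.10 to -0.28). Its ratio of intron to exon reads differed by -0.97 in log2 (-1.39 to -0.55), the lowest of the 33 genes compared. Slbp and Orc6 were the 2 of 33 with a ratio at least 1.5-fold lower, where 5.15% of features were. Chaf1a, the large subunit of chromatin assembly factor 1, had 10.6 RPKM with cycloleucine and 9.69 RPKM without (0.12; -0.0061 to 0.25), with junction reads of 219 with it and 140 without (0.41; 0.10 to 0.73).

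Across the list, junction reads leaned lower more than exon reads did. All 37 genes had at least 50 of them over both libraries, with a median log2 change of -0.12, beside -0.0082 over the 7602 features compared, and 28 of 37 lay below 0, where 51.3% of features did. Exon and junction changes lay on the same side of 0 in 33 of the 37. Junction reads are part of the exon reads, so some of this agreement is built in. Intron reads could be compared in 33 genes, with changes on both sides of 0 that leaned below it. Their median log2 change was -0.03, beside 0.02 over 7789 features, and 19 lay below 0, where 46.3% of features did. By the 0.32 rule 8 of these 33 were lower in intron reads, against 12.6% of features, and 2 were higher, against 16.7%. Exon and intron changes lay on the same side of 0 in 20 genes and on opposite sides in 13. Intron counts were low, so most of the intervals were wide.

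**Figure D4:**
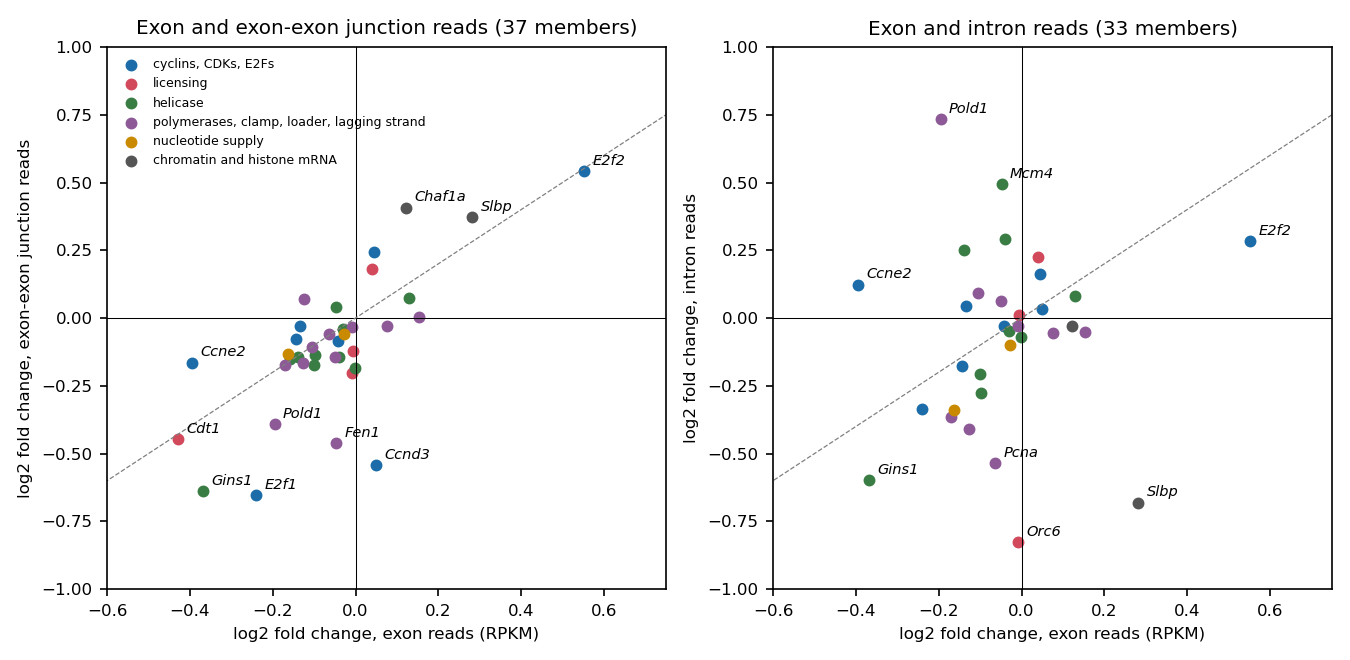
Log2 fold change of exon reads (x axis) against that of exon-exon junction reads (left, 37 genes) and of intron reads (right, 33 genes with at least 50 intron reads), cycloleucine over untreated, with the line of equality dashed. Junction reads are part of the exon reads, and their points follow the exon changes. E2f2 is at the upper right of both panels, while the intron panel shows Pold1 high and Slbp and Orc6 low apart from their exon values.

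A wider list of 73 genes of the same pathway, of which 70 passed the filter, had a median log2 fold change of -0.03. Below 0 lay 39 of these 70, where 49.4% of all kept features did. By the 0.32 rule 9 were lower and 2 higher, beside 7.08% and 8.44% of all kept features. Among 18 kept genes of cell cycle control, 3 were lower and 1 higher by this rule. Cdkn1b, the CDK inhibitor p27, had 8.44 RPKM with cycloleucine and 5.86 RPKM without, a log2 fold change of 0.52 (0.39 to 0.66). Cdc25a, the phosphatase that activates CDK2, had 8.39 RPKM with it and 12.0 RPKM without (-0.52; -0.64 to -0.40). E2f3, an activating E2F named here after its values were seen, had 5.97 RPKM with it and 8.21 RPKM without (-0.45; -0.59 to -0.33), so that E2f2 was the 1 activating E2F gene higher with cycloleucine. E2f6 was listed at 0 exon reads in both libraries.

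Genes of the fork had the lowest median of the wider lists, -0.26 over 9 genes. By the 0.32 rule 3 were lower and 0 higher, beside 7.08% and 8.44% of all kept features. Rpa1, Rpa2, Rpa3 and Gins4 lay closer to 0, at -0.07, -0.03, 0.06 and 0.09. Gins3, a further GINS subunit, had 1.51 RPKM with cycloleucine and 2.23 RPKM without (-0.54; -0.93 to -0.21), from 116 exon reads with it and 146 without. Tipin, a fork protection factor, had 28.7 RPKM with it and 36.7 RPKM without (-0.35; -0.47 to -0.23). Licensing and firing genes outside the list, in contrast, had a median of 0.09 over 13, with 0 past 0.32 either way. Cdc7 and Dbf4, the kinase and its activator that fire origins, were at 0.19 and 0.14.

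Polymerase and Okazaki fragment genes had a median of -0.01 over 16, with 2 lower and 1 higher. Prim2, the large primase subunit, had 7.20 RPKM with cycloleucine and 9.61 RPKM without (-0.41; -0.55 to -0.28), and Chtf18, of an alternative clamp loader, 4.67 RPKM with it and 6.05 RPKM without (-0.37). In nucleotide supply 1 of 9 was lower and 0 higher, beside the same shares of all features, with a median of -0.09. That gene, Tk1, the thymidine kinase of S phase, had 2.66 RPKM with it and 3.98 RPKM without (-0.56; -0.76 to -0.40), and Rrm2b, the p53-inducible small subunit of ribonucleotide reductase, was at -0.31. Chromatin assembly genes, 5 in all, lay between -0.12 for Rbbp4 and 0.10 for Asf1a.

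**Figure D5:**
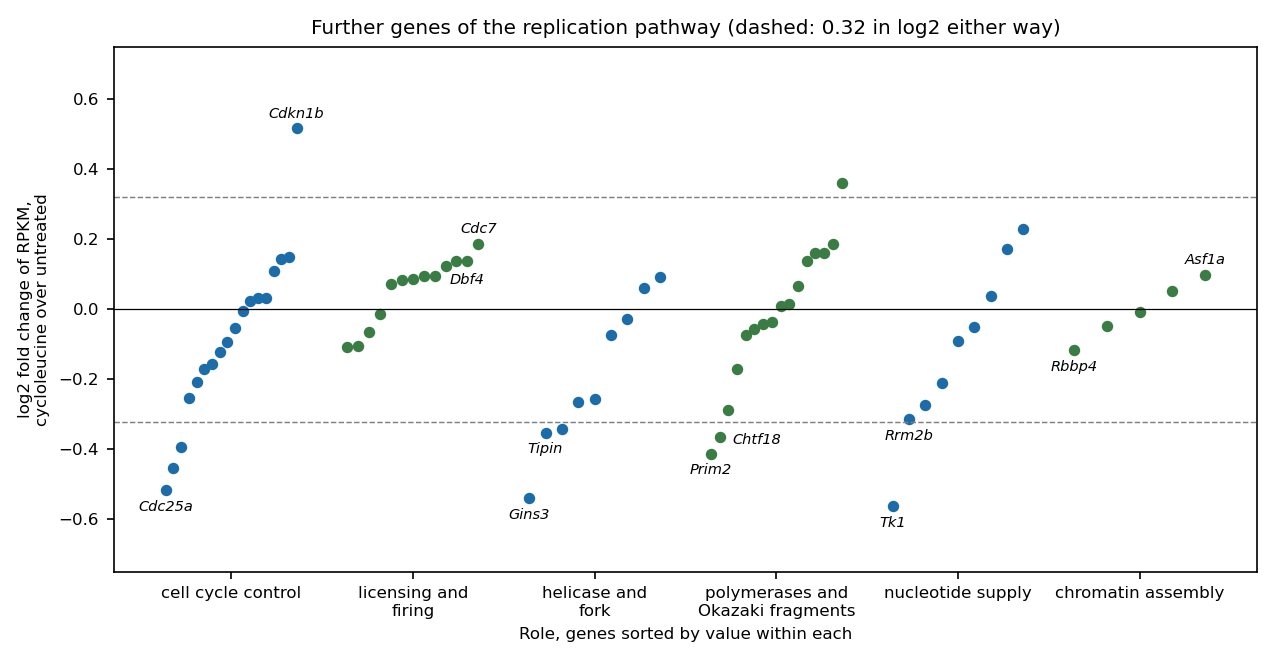
Log2 fold change of RPKM, cycloleucine over untreated, of the 70 kept further genes of the pathway by role, sorted within each, with dashed lines at 0.32 either way and the genes of the naming rule labelled. Most points lie between the lines, with Cdkn1b above the upper one and Tk1, Gins3 and Cdc25a lowest.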

How the data were processed

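X63/0 cells with cycloleucine and without were measured by RNA-seq, 1 library each, and the labels' protocols name an Ion Proton as sequencer. Per the file headers, the deposited counts are whole reads of each gene feature, all and uniquely placed, given by the authors for exons, introns and exon-exon junctions. Exon and intron reads of the 37 genes add up to their gene reads, so junction reads are counted among the exon reads. The deposited RPKM values, computed by the authors, returned the exon reads in 29646 of 29646 annotated features of both libraries (tolerance 0.02 reads plus a share of 0.0001) when multiplied by exon length and total gene reads. Per the submitters' processing notes the build was mm10. No source used here names the counting tool, the aligner, the strand setting or the gene models. Overlapping and antisense genes may therefore share reads; 14 of the 37 genes overlap a feature with at least 50 gene reads. Starts in the table count from 0 and are given here from 1. One cell, the total junction reads of Mat2a with cycloleucine, held no number. For Mat2a, uniquely placed junction reads were used in its place in both libraries. The table had 0 columns of other libraries.

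With 1 library per group no test was made, and a size rule of 0.32 in log2 was used over the 9101 features that had 50 or more exon reads in total and reached 1 RPKM in one library or both; 1.5-fold was set beside it. The pseudocount of 0.1 RPKM understates the change of low genes, and 0.5 was added to intron and junction counts, which were scaled by total gene reads. The intervals given are Clopper-Pearson (exact, 95%), made from the fraction of a gene's reads that came from the cycloleucine library, divided by the totals, and for intron to exon ratios exact intervals of the odds ratio. They cover counting error only and may be too narrow, since the libraries were PCR amplified and the labels mention no molecular identifiers. The fold change and its interval were tested on simulated data that held counting error alone. Such data cannot test the effect of PCR amplification or of differences between cultures. All 37 genes, and up to 2 further genes per role with the largest change in either direction, were named. The genes and lists were chosen with earlier results of these data known. Alternatives were uniquely placed reads, another pseudocount, other filters, TMM factors (edgeR 4.0.16), median-of-ratios scaling, annotated features alone and removal of the trend with transcript GC content (GENCODE M21). Python 3.11.15, pandas 2.3.3 and scipy 1.17.1 were used.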

Additional observations from a re-analysis of the deposited data

How the results depend on the processing

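No paired analysis was possible because there was a single library of either kind. Scaling by total exon reads, the restriction to features with at least 90% unique reads, the removal of Cdt1 and Gins2, intron reads scaled by their own total and the 1.5-fold rule were chosen after seeing the data. The median log2 fold change of the 37 genes stayed within the counting interval of its middle gene under all 12 alternatives, and below 0 in all. Filters that kept all 37 genes could not move this median. By the 0.32 rule 3 of the 37 were lower and 1 higher. With uniquely placed reads 2 were lower (Ccne2 falls short) and 2 higher (Slbp joins E2f2), and 2 were lower with at least 90% unique reads, where Ccne2 no longer enters, and without Cdt1 and Gins2; at 1.5-fold 0 were lower and 0 higher. Over all features, 644 were lower by the 0.32 rule and 768 higher. A pseudocount of 1 gave 361 and 462, a minimum of 5 RPKM 199 and 292, no filter on low values 3062 and 3730, and the 1.5-fold rule 171 and 197. With at least 90% unique reads 401 were lower. A stricter filter tests fewer features, and no filter more. The higher share of calls was 54.4%, against 64.6% with uniquely placed reads, whose library totals shift the median of all features to 0.036. Of 431 values of single genes under the alternatives, 3 left their counting interval, all with unique reads: Ccnd2 at -0.092, Fen1 at 0.30 and Pcna at 0.049. Alternatives that only filter features reuse the value of each gene, so their part of the 431 could not move. Only a change of counts, scaling, pseudocount or GC trend could move a value. The median of the licensing genes was -0.22 with at least 90% unique reads, where Cdc6 and Orc1 no longer enter. Low intron counts limit the intron comparisons.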

Other observations

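Several genes of the list share their locus with other features. Mcm7 hosts the miR-106b, miR-93 and miR-25 hairpins in an intron, and Mir106b, Mir93 and Mir25 had 0 gene reads in both libraries, which allows up to 3 counts in each. The libraries were selected for fragment size, so this says nothing of the mature miRNAs. Intron reads of Mcm7 itself were 104 with cycloleucine and 74 without (0.25; -0.19 to 0.70). Eif4a2, which overlaps the end of Rfc4, had 12392 gene reads with cycloleucine and 8575 without, a log2 fold change of 0.31, beside -0.11 in Rfc4. Ints8, which overlaps Ccne2, was at 0.15. Bysl, which overlaps Ccnd3, was at -0.27, and in Ccnd3 junction reads (80 with cycloleucine and 99 without, -0.54; -0.99 to -0.10) and exon reads (0.05; -0.08 to 0.19) lay on opposite sides of 0. Whether reads of the neighbours enter these values was not tested.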
